A study of Mus musculus with 6 samples.

Results

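The response of wild type mouse lung to histamine-releasing factor (HRF) was read from the pair of arrays labelled WT PBS and WT mHRF, 1 array each, out of 6 arrays in the series. Both hold RNA of whole lung from wild type C57BL/6 mice that received the vehicle PBS or mouse HRF, described as a His-tagged protein (mHRF-His), through the nose. The other 4 arrays hold lungs of mice labelled FcRg KO (FcRg-/-) and FceRIa KO (FceRIa-/-) under the same 2 challenges, and serve here only as a background. Genes were kept for comparison if the software marked the probe as well above background on either WT array, which left 17436 of 19752 named genes. A ratio is log2 of the signal on the HRF array minus that on the PBS array, each level taken relative to the array's own 75th percentile, which lies at 0. Genes with a mean level of -3 or more over both WT arrays are called bright (13135 genes) and the rest dim (4301 genes). Because the HRF level enters that mean, some genes are bright only because they were high with HRF. The labels give neither the age of the mice nor the dose, nor the time after the challenge, nor whether an array holds 1 mouse or a pool. With 1 array per challenge, no ratio has a replicate check and no test was possible.

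HRF is the secreted form of a protein that is also found in the cytosol of most cells, the product of Tpt1. It can bind immunoglobulin E and make mast cells and basophils release mediators, and it has been studied in allergic airway disease. In airway inflammation, epithelium, macrophages and vessel walls release chemokines that draw in leukocytes, type 2 cytokines drive mucus and eosinophils, and IL-6 and IL-17 drive acute phase proteins and the chemokines of neutrophils.

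On the 6 arrays, between 67.5% and 79.6% of 59305 spots other than controls were well above background, with WT PBS the highest of the 6 and WT HRF next at 74.6%. The 75th percentile signals of the WT arrays were 1622 for PBS and 1563 for HRF, and no spot was saturated. The lung identity of both WT arrays was checked with marker genes. The summed level of 6 alveolar type 2 markers was 9.44 on PBS and 9.52 on HRF, and that of 3 club cell markers 9.26 and 9.25 (log2 of the sum). Of the 6 mast cell markers, only Ms4a2, which encodes an IgE receptor subunit, was not well above background on either array. The genes named by the knockout labels were not lower on those arrays. Fcer1g (FcRg) stood at 4.14 and 4.32 on the pair labelled FcRg KO, beside 3.93 on WT PBS, and Fcer1a at -0.90 and -1.16 on the pair labelled FceRIa KO, beside -4.48. Whether these probes lie in a deleted part is not known here, so these values do not settle the genotype, and the arrays are named by their labels.

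The response was lopsided among bright genes. Of 13135, 301 were at least 2-fold higher on the HRF array (2.29%) and 45 at least 2-fold lower (0.343%). At 4-fold the counts were 73 and 1, and at 8-fold 28 and 0. Most genes lay close to 0, with 88.6% of bright genes within 0.5 of it, a median of -0.01, a 10th percentile of -0.37 and a 90th of 0.37. The tails differed, with 1% of bright genes at or below -0.77 and 1% at or above 1.60. Scaling on the arrays' medians in place of the 75th percentile adds the same amount to every ratio and puts the median of bright genes at 0.21, so ratios between -0.2 and 0 turn positive under it. Over all 17436 genes, 406 were higher (2.33%) and 307 lower (1.76%). The dim genes held the opposite balance, with 105 higher (2.44%) and 262 lower (6.09%) around a median of -0.31. That balance of dim genes turned round with normexp background correction (34 higher and 8 lower) and with scaling on the median (159 and 105). The 2-fold line has no gap around it: Wdr86, Cnr1 and Lrg1 lay just above it, and Ramp3, Csrnp1 and Ikzf4 just below at 0.99. On the other side Slc26a1 (-1.01) lay just past it and Rnase4 just short of it.

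**Figure D1:**
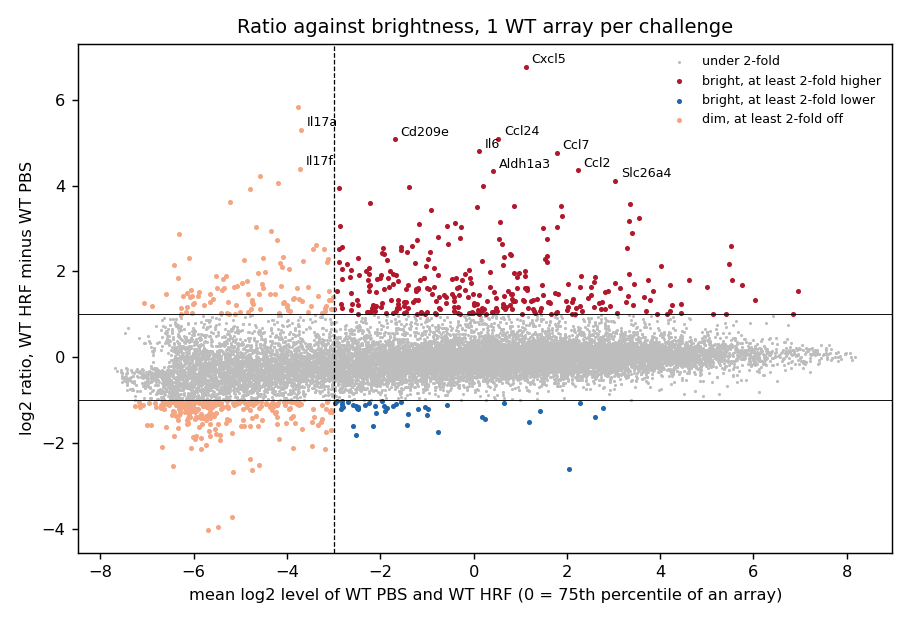
Each point is 1 gene, with its mean log2 level over the WT PBS and WT HRF arrays on the horizontal axis and its log2 ratio, HRF minus PBS, on the vertical axis. The dashed line at -3 separates dim from bright genes and the solid lines mark 2-fold. Labels mark the 10 largest measured ratios, and past 2-fold the bright genes lie mostly above 0 while the dim genes lie mostly below it, which turns round for dim genes with normexp or scaling on the median.

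The same count between PBS arrays, which differ by genotype label and not by HRF, serves as a background. It holds differences between mice and genotype labels as well as those of the platform, which cannot be told apart here. Against WT PBS, the PBS array labelled FcRg KO had 64 bright genes at least 2-fold higher (0.487%) and 80 lower (0.609%). The PBS array labelled FceRIa KO had 27 higher (0.206%) and 40 lower (0.305%), and against the array labelled FcRg KO it had 73 higher (0.56%) and 77 lower (0.591%). The share of higher genes between the WT arrays was thus above each of these shares, whereas the share of lower genes lay within their range. The PBS arrays also differed in a cell marker, whose part in these counts was not tested: the summed level of 6 B cell markers was 0.92 and 0.87 on the 2 FcRg KO-labelled arrays, against 4.51 to 4.91 on the other 4.

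Precision depended on brightness. The array carries 399 probes on 10 spots each. For bright ones the median SD of log2 signal over spots was 0.057 on PBS and 0.062 on HRF, and a ratio from 1 spot per array had a median SD of 0.089. For dim ones a ratio from 1 spot per array had a median SD of 0.41. These SDs cover spot noise within an array and not the spread between mice. By brightness, the share of genes at least 2-fold lower went from 9.33% below a mean level of -6 to 0.75% between -2 and -1 and 0.219% between -1 and 0. The share at least 2-fold higher ran from 1.95% in that dimmest bin to a peak of 3.89% between -2 and -1 and 1.54% above 5.

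**Figure D2:**
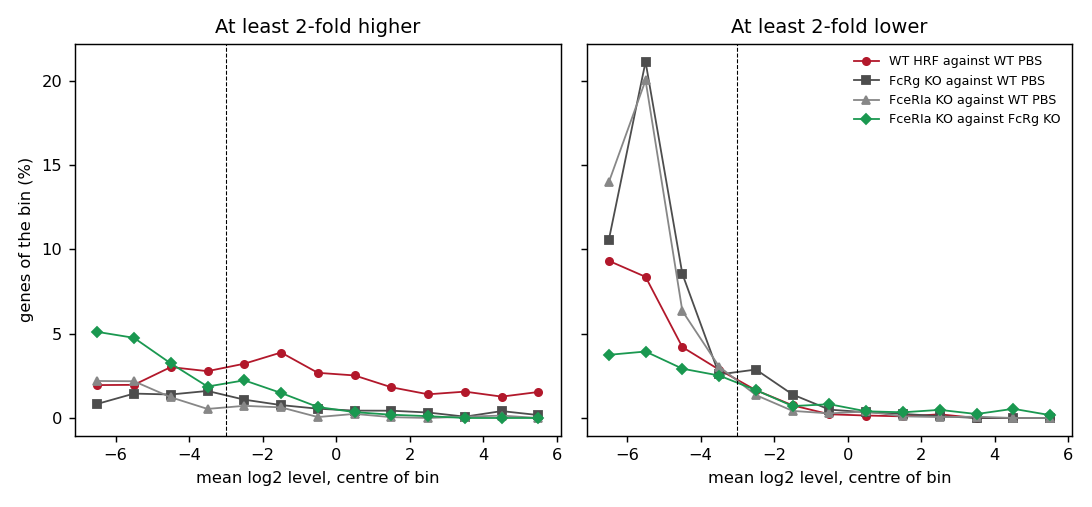
The percent of genes at least 2-fold higher (left) and lower (right) is plotted against mean log2 level in bins of width 1, open at both ends, for WT HRF against WT PBS and for 3 pairs of PBS arrays. Right of the dashed line at -3 the WT HRF points lie above the PBS pairs in the left panel and under the highest of them in the right panel, where both comparisons with WT PBS peak between -6 and -5.

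A second probe gave a check on some genes. Of the 301 higher bright genes, 49 had another measured probe, and for 42 of these every other probe was also above 0 and for 28 also at least 2-fold. Of the 45 lower ones, 12 had another probe, below 0 for 11 and at least 2-fold lower for 4. Among the genes named here, other probes differed by more than 1 for 5. These were Tnip3 (1.63 and 2.84), Il4ra (1.31 and 0.28), Cd300lf (1.29, with others at -0.11 and 1.43), Fosl2 (1.12 and -0.37) and Hif3a (-1.57 and 0.09).

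The WT HRF level was set against all 3 PBS arrays as well. For 291 of the 301 higher genes (96.7%) it lay above every PBS array, and for 207 (68.8%) by at least 2-fold. Of the 45 lower genes, 36 (80%) lay below every PBS array, and 15 by at least 2-fold. Among those 45, WT PBS was the highest of the PBS arrays for 29 (64.4%). Over all 13135 bright genes, WT HRF lay above every PBS array for 27.8% and below every one for 33.8%, and WT PBS was the highest for 30.8%. The counts for the 301 and 45 genes are descriptions. The choice of genes by their distance from WT PBS fixes that side of each comparison and favours a WT PBS level that stands apart.

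The 10 largest measured ratios belong to Cxcl5, Il17a, Ccl24, Cd209e, Il6, Ccl7, Il17f, Ccl2, Aldh1a3 and Slc26a4. They run from 4.11 to 6.76 and are set aside below, except where a group holds them.

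Chemokine ligands, the secreted proteins that guide leukocytes, were the gene family with the highest median ratio. Of 31 bright members, 19 were at least 2-fold higher and none lower, with a median of 1.90 against -0.01 for all bright genes, and 25 lay above all 3 PBS arrays. After the largest ratios came Cxcl1, which draws in neutrophils, at -1.81 on PBS and 2.19 on HRF (15.9-fold). Its relatives Cxcl3 went from -1.96 to 1.17 (8.75-fold) and Cxcl2 from -3.85 to -1.79 (4.19-fold). The PBS level of these neutrophil chemokines was not steady across genotype labels, with Cxcl2 at -6.35 and -7.07 and Cxcl3 at -3.97 and -3.78 on the other PBS arrays, both well below WT PBS. Ccl11, or eotaxin-1, which attracts eosinophils, stood at -0.88 and 2.63 (11.5-fold). Ccl17, a ligand of the receptor Ccr4 on type 2 helper T cells, went from 1.94 to 4.83 (7.40-fold). Both lay on WT HRF above each of the 3 PBS arrays, which differed among themselves by less than 1 for these 2 genes.

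Chemokines for monocytes and lymphocytes were higher too. Ccl12, which draws in monocytes, stood at -0.72 on PBS and 1.93 on HRF (6.27-fold), Ccl8 at 1.35 and 3.25, and Ccl9 at 1.69 and 3.34. Cxcl13, which draws B cells into follicles, went from -1.78 to 1.26 (8.24-fold), and Ccl19, which guides T cells and dendritic cells, from 0.39 to 2.75. Cxcl10 and Cxcl9, the interferon-inducible ligands of Cxcr3, stood at 1.74 and 4.92 (9.02-fold) and at -0.52 and 1.81 (5.02-fold). Their levels on the 3 PBS arrays spanned 2.93 for Cxcl10 and 3.56 for Cxcl9, with WT PBS the highest for both. For Cxcl9 that span is wider than its ratio of 2.33. The smaller ratios fell on a separate set of ligands. Ccl21a (0.22), Ccl21b (0.16), Ccl25 (0.14), Ccl5 (0.34), Cx3cl1 (-0.21) and Cxcl16 (0.36) lay near 0, and Cxcl12, which retains leukocytes and progenitors in tissue, was the lowest at -0.79, with levels of 5.13 and 4.34. Leukocyte markers were read beside these ligands. The 7 neutrophil markers had a median ratio of 0.96, with 3 of 7 at least 2-fold higher, and summed to 7.36 on PBS and 7.65 on HRF, against 7.56 and 7.90 on the other PBS arrays. The 8 eosinophil markers had a median of 0.28, with 1 of 8 past 2-fold, and summed to 5.63 and 5.91, against 5.91 and 6.12 on the other PBS arrays. The part of cell numbers in any of these ratios was not tested, and in whole lung more cells of a type and more RNA per cell cannot be told apart.

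**Figure D3:**
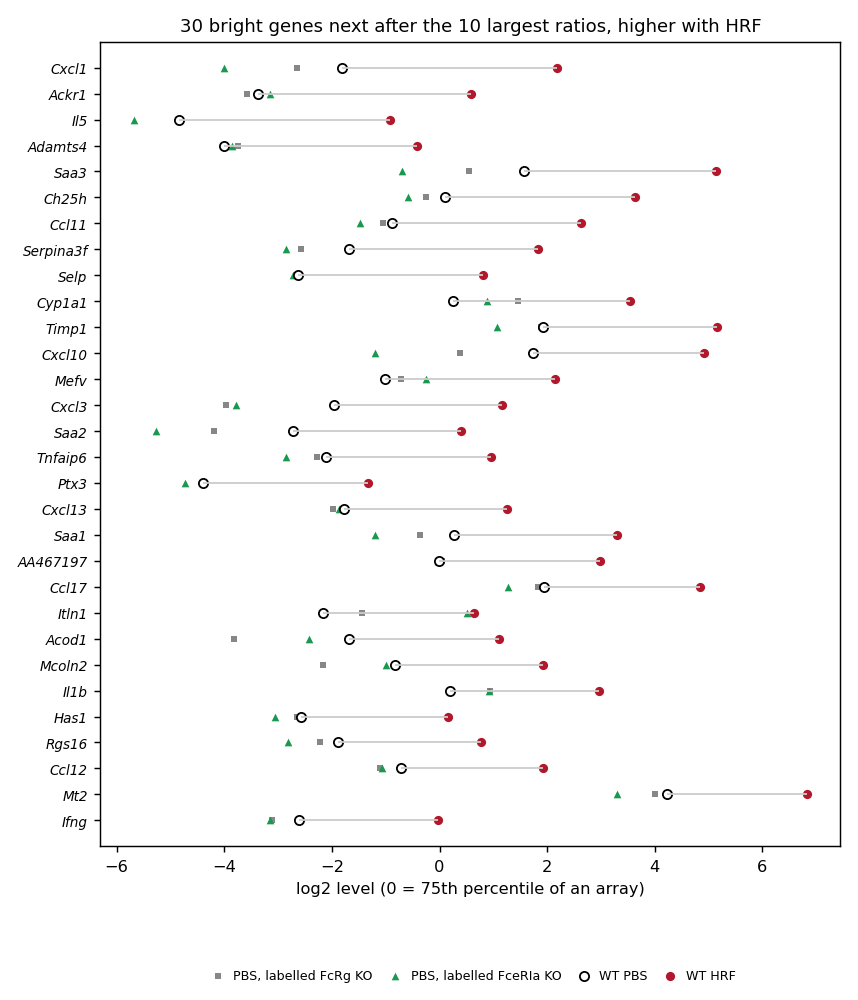
Log2 levels (0 is the 75th percentile of an array) of the 30 bright genes with the highest ratios after the 10 largest, on WT PBS (open circles), WT HRF (red) and the PBS arrays labelled FcRg KO (squares) and FceRIa KO (triangles), 1 array each. Red points lie to the right of all PBS symbols in each row, nearest for Itln1, where the array labelled FceRIa KO reaches 0.52 against 0.64 on WT HRF.

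The start sites of these genes were looked up in RefSeq promoters (build GRCm38.p6), 300 bases each, from 250 before to 50 after the start of transcription. A kappaB element, the binding letters of NF-kB, was searched on both strands as GGGANTTTC or GGAAATTCC, and a promoter with overlapping matches counted once. It was found in 16 of 267 promoters of bright genes at least 2-fold higher (5.99%) and in 10 of 62 at least 4-fold higher (16.1%), against 1.31% of promoters of bright genes and 1.34% of all 32851. Among the lower bright genes 1 of 44 promoters held it (2.27%), that of Cpb2. The 10 genes were Acod1, Cxcl1, Cxcl10, Cxcl2, Cxcl3, Cxcl9, Cxcr2, Gpr84, Il6 and Ubd. The letters TTCNNNGAA, which STAT factors bind, stood in 19.4% of the 4-fold promoters against 7.14% of those of bright genes, and the AP-1 letters TGANTCA in 16.1% against 5.58%. In promoters of genes at least 2-fold higher the shares were 13.9% for STAT and 11.6% for AP-1. Of the 44 promoters of lower genes, 2 held the STAT letters (4.55%) and 4 the AP-1 letters (9.09%). The AP-1 share was thus above that of bright genes on both sides, but on the lower side it rests on 4 promoters of 3 genes out of 34. Shown are the promoters of the 4 genes with a kappaB match among the 30 highest bright genes after the 10 largest ratios, 5′ to 3′ on the strand of the gene, with the kappaB match in capitals. They lie at chr5:90890995-90891294 (Cxcl1, plus strand), chr5:92348840-92349139 (Cxcl10, minus strand), chr5:90785851-90786150 (Cxcl3, plus strand), chr14:103046762-103047061 (Acod1, plus strand).
Cxcl1: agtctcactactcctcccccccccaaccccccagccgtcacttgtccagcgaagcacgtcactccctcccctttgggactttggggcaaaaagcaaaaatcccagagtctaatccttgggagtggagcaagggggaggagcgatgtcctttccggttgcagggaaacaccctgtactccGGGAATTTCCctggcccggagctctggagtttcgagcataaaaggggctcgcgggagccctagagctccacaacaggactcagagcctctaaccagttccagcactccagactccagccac
Cxcl10: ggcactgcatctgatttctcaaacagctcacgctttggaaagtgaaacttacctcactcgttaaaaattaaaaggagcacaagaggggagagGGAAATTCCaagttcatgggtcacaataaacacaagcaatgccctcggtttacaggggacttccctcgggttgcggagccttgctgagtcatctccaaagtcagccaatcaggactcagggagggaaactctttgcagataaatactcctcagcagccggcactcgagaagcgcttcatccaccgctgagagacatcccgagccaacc
Cxcl3: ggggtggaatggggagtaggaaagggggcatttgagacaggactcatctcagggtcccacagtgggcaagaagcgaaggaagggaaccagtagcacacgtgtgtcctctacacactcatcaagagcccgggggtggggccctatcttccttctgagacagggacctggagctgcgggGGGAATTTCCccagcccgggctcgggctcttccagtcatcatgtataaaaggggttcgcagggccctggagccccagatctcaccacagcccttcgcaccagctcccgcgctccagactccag
Acod1: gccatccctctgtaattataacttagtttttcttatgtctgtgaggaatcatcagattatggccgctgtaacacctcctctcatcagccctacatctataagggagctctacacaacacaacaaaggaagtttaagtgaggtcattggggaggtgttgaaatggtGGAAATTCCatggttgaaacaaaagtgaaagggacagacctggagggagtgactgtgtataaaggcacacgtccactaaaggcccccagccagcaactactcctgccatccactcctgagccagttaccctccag
In Cxcl1 and Cxcl3, neighbours on chromosome 5, the match is the same run GGGAATTTCC, which starts at -71 and -73 from the start site. In Cxcl10 and Acod1 it is GGAAATTCC, at -158 and -85. A match is a run of letters in this window and not a measured site.

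Receptors for chemokines were higher in smaller number. Of 17 bright members, 6 were at least 2-fold higher and none lower, with a median of 0.56. Ackr1, an atypical receptor on venules that carries chemokines across the vessel wall, had the largest ratio, from -3.38 on PBS to 0.59 on HRF (15.7-fold). Cxcr2, the receptor for Cxcl1 and Cxcl5 on neutrophils, stood at a ratio of 2.29, Ccr3, the eotaxin receptor of eosinophils, at 1.78, and the monocyte receptor Ccr2 at 1.30.

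Several cytokines beyond the largest ratios stood out. Il5, which sustains eosinophils, went from -4.85 on PBS to -0.91 on HRF (15.3-fold), and Il4, which drives type 2 responses, had a ratio of 2.17. Ifng, the hallmark cytokine of type 1 responses, went from -2.62 to -0.04 (5.99-fold), with -3.11 and -3.15 on the other PBS arrays. Il1b, made by activated macrophages, stood at 0.20 and 2.96 (6.74-fold). Type 1, type 2 and IL-17 cytokines were thus all higher on the same array, where Il13, the main driver of mucus, was at least 56.9-fold higher because its probe was not well above background on PBS. Il33, an alarm signal held in epithelial nuclei, stood at 3.07 and 4.61, while Tslp (0.13), Il18 (-0.02) and Csf2 (0.84) were under 2-fold.

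The IL-1 group showed both arms of its control. Of 16 bright members, 6 were at least 2-fold higher, with a median of 0.69. Besides Il1b and Il33 these were the signalling receptor Il1r1 (1.26), the decoy receptor Il1r2 (2.41), the receptor antagonist Il1rn (1.55) and the adaptor Myd88 (1.14). Il1r2 stood at -3.13 and -0.72 on the WT arrays and at -2.31 and -1.78 on the other PBS arrays. The IL-33 receptor Il1rl1 was at 0.92, and the kinases Irak1, Irak2 and Irak4 lay between 0.06 and 0.37.

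Some IL-17 response genes were higher as well, and whether they depend on the IL-17 cytokines was not tested. Of 15 bright members, 7 were at least 2-fold higher (median 0.84), led by Cxcl5 and Cxcl1. Steap4, a metalloreductase, went from -1.88 to 0.20, and Zc3h12a, an RNase that degrades cytokine messages, from -3.22 to -1.27. The receptor chains Il17ra (0.27) and Il17rc (0.04) and the adaptor Traf3ip2 (-0.07) lay near 0. Lcn2 and S100a8, which neutrophils hold as well, stood at 1.68 each, beside the neutrophil marker S100a9 at 0.80. S100a8 stood at 3.37 on WT PBS and 5.05 on WT HRF, but at 4.66 and 5.24 on the other PBS arrays, so 1 of them lay above WT HRF.

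Targets of IL-6 and STAT3 had 15 of 24 bright members at least 2-fold higher and none lower, with a median of 1.14 and 20 above all 3 PBS arrays. The serum amyloid A genes encode acute phase proteins that bind lipid. Saa3 stood at 1.56 on PBS and 5.13 on HRF (11.9-fold), Saa2 at -2.72 and 0.40 (8.65-fold) and Saa1 at 0.27 and 3.30 (8.15-fold). Over the 3 PBS arrays their levels spanned 2.26, 2.55 and 1.48, with WT PBS the highest for each. Saa1 and Saa2 are close copies, as are the Serpina3 genes, so signal shared between their probes cannot be told apart. Serpina3f, a protease inhibitor, went from -1.68 to 1.82 (11.4-fold), Serpina3n from 0.63 to 2.31 and Serpina3m from -2.08 to -0.88. Other acute phase genes were the orosomucoids Orm2 (2.13) and Orm1 (1.59), Fgl1 (1.08) and Lrg1, just past 2-fold, whereas haptoglobin, Hp, lay at 0.07 and Lbp at 0.33. Socs3, the feedback inhibitor of this pathway, went from 2.96 to 5.08 (4.36-fold), and Stat3 itself stood at 0.57 and the receptor chain Il6st at 0.57, with Osmr at 1.28.

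Genes that respond to IL-4 and IL-13 had the highest median of the lists, 1.60, with 16 of 22 bright members at least 2-fold higher and none lower. Goblet cell genes encode mucus and its processing machinery. Clca1, a secreted goblet cell protein, stood at 4.40 and 6.57 (4.52-fold), Muc5ac, a gel-forming mucin, at -1.76 and -0.17, and Agr2, which folds mucins, at 1.70 and 3.47. Spdef, the transcription factor of goblet cells, went from 0.14 to 2.04 and Fcgbp, a mucus protein, from 0.12 to 1.73. Muc5b, the other gel-forming mucin of airways, lay at 0.00, Muc4 at 0.54 and Muc1 at 0.10. The summed level of 6 goblet cell markers was 5.76 on PBS and 7.13 on HRF, with 4 of 6 at least 2-fold higher. Itln1, a lectin of goblet cells, went from -2.17 to 0.64 (6.99-fold), and its other probe gave 3.05, but it stood at 0.52 on the PBS array labelled FceRIa KO.

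The macrophage side of the type 2 response held 11 of 21 bright members at least 2-fold higher (median 1.03). Of these, Ccl24, Ccl17, Arg1, Retnla and Chil4 also count among the IL-4 and IL-13 response genes above. Arg1, which breaks down arginine, stood at -2.36 and -0.16 (4.60-fold). Retnla, a secreted marker of these macrophages, went from 6.19 to 7.73 (2.91-fold), and the chitinase-like Chil4 from 0.40 to 1.73. Chil3, its close relative, lay at 0.29, Mrc1 at 0.75 and the resident macrophage genes Folr2 and Stab1 at -0.45 and 0.01. The C-type lectins Cd209d, Cd209a and Clec10a of dendritic cells and macrophages were at 2.38, 1.96 and 1.03, and their relative Cd209f at -0.54. Pdcd1lg2, a ligand of the checkpoint receptor Pdcd1, went from -3.21 to -0.68 (5.80-fold). The summed level of 8 alveolar macrophage markers was 7.60 on PBS and 7.96 on HRF.

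The list of interferon gamma-inducible genes held bright members past 2-fold, while the list of type I interferon-stimulated genes held none. Of 20 bright members of the first list, 10 were at least 2-fold higher, the median was 0.99, and all 20 lay above the 3 PBS arrays. Ubd, a ubiquitin-like modifier, went from -3.30 to -1.30 (4.01-fold), and Acod1, which makes itaconate in macrophages, from -1.68 to 1.10 (6.88-fold). Their levels on the 3 PBS arrays spanned 2.27 and 2.14, with WT PBS the highest for both. The immunity GTPases Iigp1 (1.48), Gbp5 (1.37), Gbp6 (1.21), Igtp (1.09), Tgtp1 (1.07) and Tgtp2 (1.01) were past 2-fold, and the paralogs Gbp7 (0.21) and Gbp3 (0.27) were not. Of 17 bright type I interferon-stimulated genes on the list, 0 were at least 2-fold off. At the 2.29% of all bright genes that were at least 2-fold higher, few of 17 would pass. Above all 3 PBS arrays lay 5 of them, near the share of 27.8% over all bright genes. The median of the 17 was 0.27, against -0.01 for all bright genes, with a range from -0.15 for Cmpk2 to 0.90 for Oas2. The difference between these medians was not tested. Antigen processing genes were small and uniform, with 0 of 22 past 2-fold, a median of 0.30, and 21 of 22 above all 3 PBS arrays.

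**Figure D4:**
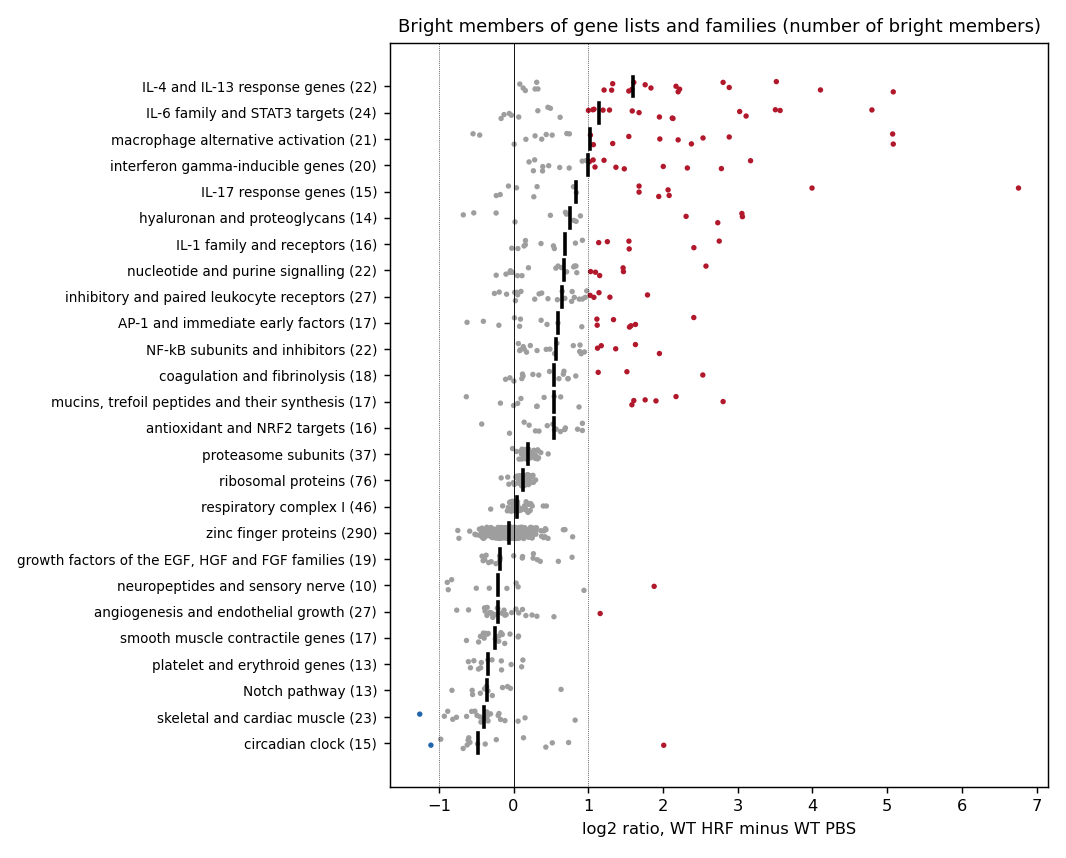
Log2 ratios, WT HRF minus WT PBS, of bright genes (points) in named gene groups, with the median as a black bar and the number of bright members in brackets. Red marks genes at least 2-fold higher and blue at least 2-fold lower, and the medians run from 1.60 for IL-4 and IL-13 response genes through about 0 for housekeeping families to -0.48 for clock genes.

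Some signalling genes inside the cell were past 2-fold. Of 22 bright NF-kB subunits and inhibitors, 5 were at least 2-fold higher (median 0.56) and 21 lay above all 3 PBS arrays. These were the atypical inhibitor Bcl3 (2.36 on PBS, 4.31 on HRF), the ubiquitin editor Tnfaip3 (1.44 and 2.80), Tnip3, the inhibitor Nfkbie (1.12) and the subunit Relb (1.17). Rela, Nfkb1 and Nfkb2 stood at 0.14, 0.49 and 0.91. Of 23 bright JAK, STAT and SOCS genes, 4 passed 2-fold: Socs1 (0.46 and 2.68, 4.67-fold), Socs3, Cish (1.21) and the kinase Pim1 (1.85). Stat6 lay at -0.00.

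Among AP-1 and immediate early factors, 7 of 17 bright genes were at least 2-fold higher (median 0.59). The Batf factors, which shape T cell and dendritic cell programmes, were all among them, with Batf3 from -0.43 to 1.99 (5.32-fold), Batf at 1.57 and Batf2 at 1.12. Myc (1.63), Egr2 (1.55) and the stress factor Atf3 (1.34) joined them, as did Fosl2 on 1 of its 2 probes. The classical early genes Fos (0.08), Jun (0.01) and Fosb (-0.40) did not pass, and Nr4a1 was lowest at -0.62. Nfil3, a factor of type 2 immunity and of the clock, went from 0.10 to 2.11 (4.03-fold), and Cebpd, an acute phase activator, from 4.64 to 6.43 (3.46-fold).

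Surface receptors of leukocytes were higher in part. Of 27 bright inhibitory and paired receptors, 5 were at least 2-fold higher (median 0.65): Lilrb4a (2.84 and 4.63), Cd300lf, Cd300lb (1.14), Lilra6 (1.08) and Pirb (1.02). Of 24 bright pattern recognition receptors, 5 passed, and these were the scavenger receptors Msr1 (2.04) and Marco (1.33), the endotoxin receptor Cd14 (1.70) and the lectins Clec4d (1.61) and Clec4e (1.46). The toll-like receptors were all under 2-fold, with 9 bright members between -0.35 and 0.88. Of 16 bright costimulatory and checkpoint genes, 6 passed, among them Tnfrsf4, or OX40, from 0.01 to 1.87, Icos at 1.45, Pdcd1 at 1.49 and Tnfrsf18 at 1.25. These are genes of activated T cells, while the summed level of 6 T cell markers was 3.83 and 4.24 and 0 of 6 were at least 2-fold higher. Csf2rb (1.19), the shared receptor chain for IL-5, IL-3 and GM-CSF, was past 2-fold, as was its close relative Csf2rb2 (1.30). Csf3r, the neutrophil growth factor receptor, was at -0.80.

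Few vessel wall genes were past 2-fold. Selp, or P-selectin, on which leukocytes roll, went from -2.63 to 0.81 (10.8-fold), with -2.62 and -2.72 on the other PBS arrays. Vcam1, which arrests leukocytes, stood at 2.59 and 4.02, and its other probe gave the same ratio of 1.44 against 1.43. Sele, or E-selectin, was at least 18.6-fold higher since its probe was not well above background on PBS. Icam1 was at 0.39, and Pecam1, a marker of all endothelium, at -0.41. Of 23 bright endothelial identity genes, only Ackr1 was at least 2-fold off, and the median was -0.17 (0.05 with scaling on the median). The same held for angiogenic genes, where Adm (1.16), a vasodilator peptide, was the only 1 of 27 past 2-fold and Kdr, Tek and Sox17 stood at -0.39, -0.28 and -0.60.

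Matrix genes divided by kind. Of 14 bright hyaluronan and proteoglycan genes, 4 were at least 2-fold higher (median 0.76). Hyaluronan is a large sugar polymer of swollen tissue. The synthases Has1 and Has2 went from -2.58 to 0.15 (6.65-fold) and from -3.64 to -1.33 (4.96-fold). Tnfaip6, which links proteins to hyaluronan, went from -2.10 to 0.96 (8.36-fold), and its other probes gave 2.48 and 3.16. Ptx3, a pentraxin that holds this matrix together, stood at -4.39 and -1.34 (8.32-fold), and the receptors Cd44 and Lyve1 at 0.84 and 0.81. Adamts4, which cuts proteoglycans, went from -4.01 to -0.41 (12.1-fold), and Timp1, which inhibits metalloproteinases, from 1.91 to 5.16 (9.47-fold), while Timp2 and Timp3 lay at -0.18 and -0.17. Collagens were on the other side: 0 of 27 bright members were past 2-fold, the median was -0.40, the highest was at 0.09, and 0 lay above all 3 PBS arrays. Among clotting genes Serpinb2 (2.53), Thbs1 (1.52) and the fibrinogen chain Fgg (1.13) passed 2-fold.

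Small-molecule enzymes and their receptors held some of the largest ratios. Ch25h, which makes 25-hydroxycholesterol, went from 0.10 to 3.63 (11.6-fold). Cyp7b1, which hydroxylates oxysterols, went from -0.64 to 1.36, and Gpr183, the receptor for an oxysterol, stood at 1.03. The 20 other bright cholesterol genes were all under 2-fold, between Insig1 at -0.53 and Cyp51 at 0.70. In prostaglandin and leukotriene genes, 5 of 24 bright members passed, among them Ptgs2, the inducible cyclooxygenase (-1.16 and 0.64), Ptger4, a prostaglandin E2 receptor (1.92), and Alox15 (1.07), whereas Ptgs1 was at 0.63 and Alox5 at 0.03. Receptors for metabolites were also higher, with Gpr84 from -2.85 to -0.27 (5.96-fold), Hcar2 at 1.47, Adora3 at 1.47 and P2ry2 at 1.15. Of 22 bright genes in that nucleotide and metabolite group 6 passed 2-fold, with a median of 0.68.

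Cyp1a1, a target of the aryl hydrocarbon receptor, went from 0.26 to 3.55 (9.77-fold). It stood at 1.45 and 0.88 on the other PBS arrays, and Cyp1b1, another such target, had a ratio of 1.27. The airway enzymes Cyp2f2 (-0.13), Cyp2b10 (0.01) and Gstm1 (0.03) lay near 0. Cyp26b1, which degrades retinoic acid, stood at 1.31 and 2.64 on the WT arrays but at 4.69 and 4.78 on the other PBS arrays, so that the WT HRF level lay below both. Metal handling genes included 6 of 22 bright genes past 2-fold, among them the metallothioneins Mt2 (4.22 and 6.83, 6.07-fold) and Mt1 (5.38 and 6.71, 2.51-fold), the zinc importer Slc39a14 (1.52) and the haem binder Hpx (1.28). Of 16 bright antioxidant genes, 0 passed 2-fold, yet the median was 0.54 and 14 lay above all 3 PBS arrays, with Nqo1 and Gclc highest at 0.92.

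Of the 30 genes, 4 have no group above. Mefv, which encodes pyrin, an inflammasome sensor of myeloid cells, went from -1.01 to 2.14 (8.93-fold), with 2.54 from its other probe. Mcoln2, a lysosomal ion channel, stood at -0.83 and 1.92 (6.74-fold) and Rgs16, a brake on G protein signals, at -1.88 and 0.77 (6.28-fold). Rgs16 also had a ratio of 2.45 on the pair labelled FceRIa KO. AA467197 went from -0.02 to 2.99 (8.04-fold), and it was past 2-fold on the pairs labelled FcRg KO (1.57) and FceRIa KO (1.34) as well. Strong signals also gave ratios past 2-fold: the complement component C3 went from 6.35 to 7.36 (2.01-fold), with 1.07 from its other probe, and Gm13889 from 4.17 to 5.82 (3.13-fold).

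Housekeeping families and resident epithelium marked the flat part of the response. Of 76 bright ribosomal protein genes, all lay between -0.17 and 0.29, with a median of 0.13. Of 46 respiratory complex I genes, 0 passed 2-fold around a median of 0.05, and of 37 proteasome genes 0 around 0.19. Of 27 bright replication and mitosis genes, all lay between -0.37 and 0.22, with Mki67 at -0.04. Surfactant and alveolar type 2 genes had 0 of 20 past 2-fold and a median of 0.01, with Sftpc at 0.00, and alveolar type 1, club and ciliated cell lists had medians of -0.13, -0.13 and -0.15, which scaling on the median put at 0.09, 0.09 and 0.07. Dyneins of cilia, a family of 6 bright genes, had a lower median of -0.48 (-0.26 with scaling on the median), with 0 past 2-fold. Of 26 bright genes of the unfolded protein response, 0 passed, with a median of 0.23 and Hspa5 and Manf at 0.76 and 0.81.

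Groups with medians further below 0 had small ratios, and those named next stayed below 0 with scaling on the median. Clock genes had a median of -0.48 over 15 bright members, with Per3, a repressor of the clock, at -1.77 on PBS and -2.87 on HRF. Against that median stood Nfil3 (2.01), the only member at least 2-fold higher, Arntl (0.52), which the repressors Nr1d1 (-0.97) and Nr1d2 (-0.38) act on, and Per1 (0.43). On the other PBS arrays Per3 was at -3.29 and -2.54, so the lower of these lay below WT HRF. Notch pathway genes, which govern cell fate and vessels, had a median of -0.36, with Hes1 lowest at -0.82 and only 1 of 13 bright genes above all 3 PBS arrays. Skeletal and cardiac muscle genes stood at -0.40, with 0 of 23 above all PBS arrays, and smooth muscle genes at -0.24. In the first of these groups Myh7, a slow myosin, went from 2.06 to 0.80, and in another family Myl3, its light chain, from 3.37 to 2.20. The summed level of cardiac markers of atrium and pulmonary vein was 7.97 on WT PBS, 7.65 on WT HRF and 8.54 under PBS with the FcRg KO label, and its part in these ratios was not tested.

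Of the 45 lower bright genes, 8 (17.8%) belong to a list, as do 140 of the 301 higher ones (46.5%) and 7.89% of all bright genes. The lists were chosen with earlier results of these data known, so these shares describe the lists and not how the genes group. Zbtb16, a glucocorticoid-induced transcription factor that innate-like lymphocytes also use, had the lowest ratio, from 3.35 on PBS to 0.76 on HRF (-2.59). It stood at 2.88 and -0.08 on the other PBS arrays, the second below WT HRF. Of 16 bright glucocorticoid-responsive genes, Zbtb16 and Hif3a were at least 2-fold lower and Mt2 and Lcn2 at least 2-fold higher, while Fkbp5 (-0.59), Tsc22d3 (-0.33) and Sgk1 (-0.35) lay under 2-fold.

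Some of the lower genes serve fuel use. Depp1, induced by FoxO factors, went from 1.94 to 0.43. Pck1, the gluconeogenic enzyme, stood at 0.96 and -0.48, with 1.68 and 0.85 on the other PBS arrays. Ppara, a regulator of fatty acid use, was at -0.75 and Cpt1a at -0.50, but the list of fatty acid oxidation genes as a whole had a median of -0.11 (0.11 with scaling on the median) with 1 of 21 bright genes past 2-fold. Depp1 and Pck1 each lay on WT HRF below all 3 PBS arrays.

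Epithelial and stromal genes made up part of the rest. Krt15, a keratin of basal cells, stood at 0.88 and -0.51, with Krt5 at -0.50 and Trp63 at -0.16. Cldn8, a tight junction protein, was at -1.03, just past 2-fold. Cldn2, a leaky one, was at 1.13, with levels of -3.56 on PBS and -2.43 on HRF, so its mean lay only just inside the brightness limit. Scara5, a ferritin receptor of stromal cells, went from -0.38 to -1.57. Vldlr, a lipoprotein receptor, stood at 2.82 and 1.76 and Slc4a5, a bicarbonate transporter, at 1.18 and 0.12, with -0.69 and -0.67 from their other probes. For 4 of the 20 lowest genes, Zbtb16, Scn2b, Pip5kl1 and Rfesd, another PBS array lay below WT HRF. Mup19, which encodes a urinary pheromone carrier, at -0.60 and -1.80 on the WT arrays, reached 0.96 under PBS with the FcRg KO label. The Mup genes are near-identical copies, so their probes cannot be told apart. The rest of the 20 were Entpd8, which splits extracellular nucleotides (-1.80), Krtap17-1 (-1.75), Scn2b, a sodium channel subunit (-1.60), Slc26a10 (-1.59), the transcription factors Prdm8 (-1.32) and Mycl (-1.20), the inhibitory lectin Clec12b (-1.29), T2 (-1.25), Pip5kl1 (-1.20) and Rfesd (-1.19).

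**Figure D5:**
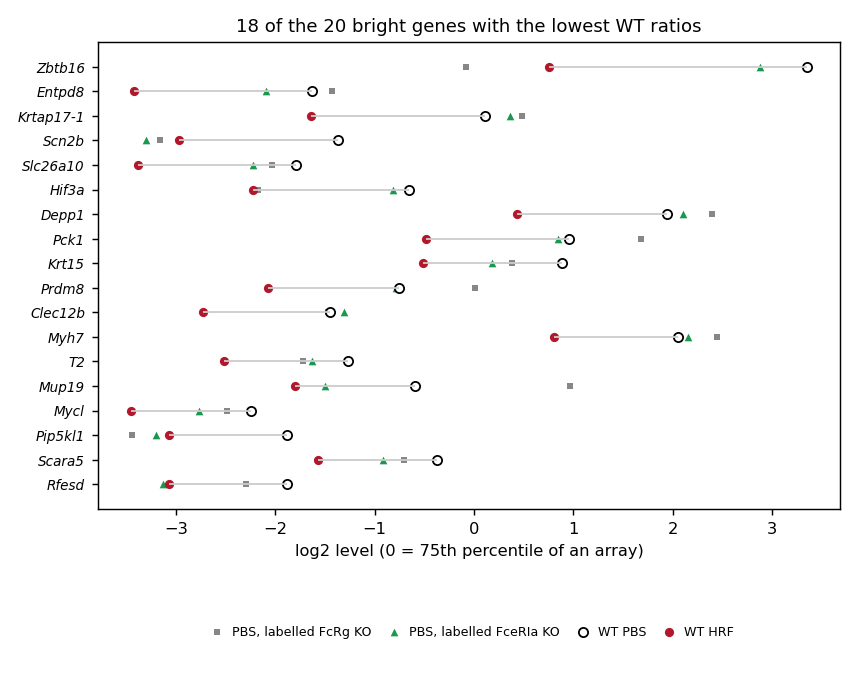
Log2 levels (0 is the 75th percentile of an array) of 18 of the 20 bright genes with the lowest ratios, on WT PBS (open circles), WT HRF (red) and the PBS arrays labelled FcRg KO (squares) and FceRIa KO (triangles), 1 array each. WT HRF lies left of WT PBS in every row, by 2.59 for Zbtb16 down to 1.19 for Rfesd, and for Zbtb16, Scn2b, Pip5kl1 and Rfesd another PBS array lies to the left of WT HRF.

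Dim genes were measured less precisely. Among measured ones the highest ratios were Pla2g4c, a phospholipase (4.05), the granulocyte growth factor Csf3 (3.04), the T cell growth factor Il2 (2.95), the cystine transporter Slc7a11 (2.73) and Il1f9, or IL-36 gamma (2.61). All 5 lay at -4.69 or below on WT PBS. Ratios as low as -2.61 for Sprr2j-ps, -2.51 for Syce1, -2.36 for Ncam2, -2.13 for Dnajb8 and -2.11 for Upk3bl stood at the other end. For 237 of the 262 lower dim genes (90.5%) WT PBS was the highest of the PBS arrays, which their choice favours, and the median range over the PBS arrays was 1.69. Over all 4301 dim genes WT PBS was the highest for 68.9%, against 30.8% of all bright genes, so it read high among dim genes in general. What part this has in the lower dim ratios was not tested. Probes that were not well above background on 1 array gave bounds for 124 genes higher and 648 lower. Beside Il13 and Sele, Olfr1129 was at least 15.0-fold higher, while the lower bounds were at least 16.1-fold for Spry3, at least 15.5-fold for Calb1 and at least 13.3-fold for Catsperb. These 3 genes were high on WT PBS alone, at -2.75, -2.81 and -3.04, and at -7.31 or below on the other 5 arrays. Of 481 olfactory receptor genes compared, which encode odour sensors of the nose, 3 were at least 2-fold higher and 41 lower (8.52%, beside 6.09% of all dim genes). Of these receptors 462 are dim, and none of the 19 bright ones was past 2-fold.

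The 301 higher genes were also read on the other pairs, which share no array with the WT pair. On the pair labelled FcRg KO, 18 of them (5.98%) were at least 2-fold higher with HRF and 7 lower, with a median of 0.13, where 31 of all bright genes were higher (0.238%) and 90 lower (0.691%). On the pair labelled FceRIa KO, 77 (25.6%) were at least 2-fold higher and 2 lower, with a median of 0.57, where 114 of all bright genes were higher (0.875%) and 16 lower (0.123%). Past the 2-fold line, 6 were higher on all 3 pairs and 212 (70.4%) on the WT pair only, on which they were chosen. A gene under that line on another pair can still lie above 0 there. The 10th and 90th percentiles of the 301 were -0.07 and 2.13 with the FceRIa KO label and -0.30 and 0.72 with the FcRg KO label. Of the 45 lower genes, 5 were at least 2-fold lower with the FcRg KO label and 3 with the FceRIa KO label. With 1 array per group, differences between pairs were not tested.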

How the data were processed

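Cy3-labelled total RNA of whole lung was hybridised to 1-colour Agilent arrays, per the labels. Per the file headers, the spots were read by Agilent Feature Extraction (10.7.3.1), whose deposited processed signals are intensities with the background subtracted within each array, without scaling between arrays. The deposited median spot and background intensities served the normexp alternative. The authors' deposited value table holds log2 values, whose centring is not given in the sources used here; its HRF minus PBS differences matched those of the scanner files with r of 0.998 and a slope of 1.00 over 55674 probes, and its column medians were 0.1 and 0.

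Each level was the log2 processed signal after subtraction of the log2 75th percentile of that array, taken over spots other than controls. Outlier spots were left out and spots of a probe averaged. Of 55681 probes, 26056 were named through their accession with the RefSeq gene table of GRCm38.p6, giving 19752 genes, while 29625 probes are unnamed. For 5270 genes with several probes the brightest over the 6 arrays was used. Where a probe was not well above background on 1 array, the fold is a bound: the dim side is set to the lowest signal that was well above background there, or to the probe's own if larger. The number of arrays limits the precision.

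No test was run, as each group has 1 array. Genes past 2-fold were counted, and 57 gene lists and 50 families defined by symbol were described by counts and medians. The members and lists were chosen with earlier results of these data known. Lists and families share genes, so their counts are not independent. Named were the 30 highest bright ratios after the 10 largest, the 20 lowest, the 10 brightest past 2-fold each way, the 5 highest and lowest dim ratios, up to 3 bounds each way, list members, and genes whose probes differ by over 1; a few of these genes are not reported here. Alternatives were normexp (offset 50) with quantile normalization in limma 3.58.1 (R 4.3.3), the value table, scaling on the median, other filters and brightness limits, and the median over probes. Scripts were tested on simulated data and ran in Python 3.11.15 with pandas 2.3.3, numpy 2.4.6, matplotlib 3.10.9 and scipy 1.17.1.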

Additional observations from a re-analysis of the deposited data

Results flagged for a closer look

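Some genes went at least 2-fold one way on the WT pair and at least 2-fold the other way on a pair of another genotype label. Cxcl9, an interferon-inducible chemokine, had a ratio of 2.33 on the WT pair and -1.08 on the pair labelled FcRg KO. Orm2, an acute phase protein, stood at 2.13 and -1.13 on the same pairs. Cyp26b1, which degrades retinoic acid, stood at 1.32 on the WT pair, -5.56 on the pair labelled FcRg KO and -2.93 on the pair labelled FceRIa KO. Mup19 was lower on the WT pair at -1.21 and higher on the pair labelled FceRIa KO at 2.45. Each pair holds 1 array per challenge, so these differences were not tested.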

How the results depend on the processing

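Without replicates, each alternative gives a value and no test. Under the alternative normalizations and the median over probes, no ratio of the 301 higher and 45 lower bright genes changed sign. That median includes the probe used. Another probe alone had the opposite sign for 7 of 49 higher genes and 1 of 12 lower ones. Scaling on the median moved the median ratio of all genes from -0.05 to 0.17. It gave 458 bright genes higher and 15 lower, 617 and 120 over all genes, and 26 lists with a bright median of 0.5 or more against 16. With normexp, 27 bright genes and 35 of all genes were lower. With a brightness limit of -2 or -4, 24 or 77 bright genes were lower. Over all genes, 538 were lower with the value table, 186 when the probe had to be well above background on both arrays, and 921 with no filter. Among genes past 2-fold, the share that was higher was 87.0% for bright genes and 56.9% for all genes. It was 96.8% and 83.7% with median scaling, 90.9% and 89.7% with normexp, and for all genes 47.6% with the value table, 67.1% on both arrays and 37.0% with no filter. Of the 301 higher bright genes, 265 stayed past 2-fold with normexp, and of the 45 lower ones 19 did, and 15 with median scaling. Brightness taken over all 6 arrays (287 higher, 45 lower) or the 3 PBS arrays (266 and 50) was chosen after seeing the data. Of 20 lists and families with a median of 0.5 or more, all 20 stayed above 0 and 12 at 0.5 or more in each of 10 settings. Of 16 at -0.2 or less, 5 turned positive, all with median scaling, which adds 0.22 to every ratio. Dim genes were 105 higher and 262 lower, against 34 and 8 with normexp and 159 and 105 with median scaling. The cause of the other shifts was not tested. No paired analysis was possible because the WT comparison has 1 array per challenge.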

Other observations

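Of the 301 higher bright genes, 140 belong to a list. The gene families show where some of the others lie. Of 24 bright serpins, 5 were at least 2-fold higher, with a median of 0.36, and besides the acute phase members this held Serpina11 (1.29). Of 10 bright TNF ligands, 4 were past 2-fold (median 0.71): Lta (1.79), Tnf (1.55), Tnfsf14 (1.55) and the B cell survival factor Tnfsf13b (1.32). Interleukin receptors held 8 of 28, among them Il2ra (2.45), Il12rb1 (1.29), Il21r (1.06) and Il2rb (1.03). Of 218 bright solute carriers, 6 were at least 2-fold higher (2.75%, beside 2.29% of all bright genes) and 3 lower around a median of -0.01 (0.21 with scaling on the median), with the glucose transporter Slc5a1 at 2.22. Among 11 bright laminins only Lama1 was past 2-fold, at 2.46, and the family median was -0.20 (0.02 with scaling on the median). The kallikreins Klk1b26 (1.34), Klk1b5 (1.32), Klk1 (1.26) and Klk1b24 (1.15), and the cystatin relatives Cstdc4 (1.80), Stfa2l1 (1.48) and Stfa2 (1.26), chosen after their values were seen, are near-identical copies whose probes cannot be told apart.

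Several regulatory families were flat. Of 290 bright zinc finger genes named with Zfp symbols, 0 passed 2-fold and 282 lay within 0.5, and of 36 tripartite motif genes 0 passed. Ligands of development had medians below 0 with no gene past 2-fold: Wnt ligands -0.38 over 8 bright genes, FGF ligands -0.33 over 7 and BMP ligands -0.19 over 8 (0.04 with scaling on the median). Bright killer lectin receptors of NK cells had a median of 0.16 over 16 genes.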
